A study of Mus musculus with 22 samples.

Results

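Loss of the aryl hydrocarbon receptor (AHR) was examined for its effect on transcripts of the long-term hematopoietic stem cells (LT-HSCs) of 18-month mice. The 12 arrays from 18-month mice were taken out of the 22 in the series by genotype and age alone: 6 AHRVav1 mice and 6 AHRFX mice. Both groups were female C57BL/6J mice with floxed Ahr alleles. In AHRVav1 mice a Vav1-Cre transgene, which is active in hematopoietic cells, deleted Ahr. The paper found only the unexcised allele in non-hematopoietic cells, which it isolated from lung. It describes no such test of sorted marrow niche cells. It cites reports of Vav1-Cre expression in endothelium, but saw no excision outside hematopoietic tissue in its own PCR. AHRFX mice carried the floxed alleles without the deletion. LT-HSCs were sorted from marrow depleted of lineage-positive cells through the SLAM gate (CD48-negative, CD150-positive). The cells were also stained for Sca-1, cKit and CD34. The paper's abstract describes the sorted population as CD34-negative LSK cells (lineage-negative, Sca-1-positive, cKit-positive). RNA of each animal was pre-amplified from picogram amounts, and each animal had its own whole-transcript array. The labels number the arrays 1 to 6 in each genotype. Arrays 1 and 2 of both genotypes had stood apart from the others in earlier work on these data. Most list medians and many gene differences are therefore given for the 12 arrays and for each set alone. The sets are arrays 3 to 6 (4 against 4) and arrays 1 and 2 (2 against 2). An 18-month difference given as 1 value, with no set named, is that of the 12 arrays. Such a value does not show whether the sets were alike.

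AHR is a receptor of the bHLH-PAS family that rests in the cytoplasm with HSP90 and its co-chaperone p23. After it binds a ligand, such as a planar aromatic pollutant or a tryptophan metabolite, it enters the nucleus, pairs with ARNT and binds DNA at sites with the core GCGTG. Its best known targets are the cytochromes Cyp1a1 and Cyp1b1 and the feedback inhibitors Ahrr and Tiparp. LT-HSCs sit at the top of the blood hierarchy and are mostly quiescent, and with age they accumulate in number, lean toward platelet and myeloid output and raise a well known group of genes that includes Selp, Vwf and Clu.

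The 12 libraries were alike in quality measures. Between 52.3% and 58.7% of 26688 probe sets lay above background on each array, background being the 95th percentile of 1401 olfactory and vomeronasal receptor probe sets (signals of 25.2 to 31.3). The same share was 24.4% to 34.3% at 2 months. Correlations between arrays, across probe sets, lay between 0.939 and 0.981. The gated genes Kit (635 to 1196), Slamf1 (CD150, 72 to 158) and the stem cell regulators Hlf (647 to 1375) and Mecom (216 to 419) were above background on all 12 arrays. Cd48, which the gate excludes, was not absent: its signal was 87.6 to 206 on arrays 1 and 2 and 350 to 575 on arrays 3 to 6. Likewise the granulocyte proteases Elane (659 to 1355 and 2450 to 3136) and Mpo (1847 to 2809 and 4499 to 5467), which are made by myeloid progenitors, were among the stronger signals. The lineage antigens Cd4 and Ly6g were above background on 0 arrays and Cd3e on 6. Of the 6 lineage antigens measured, 2 were above background on all 12 arrays and 2 on none. Cd34, which the population of the paper's abstract also excludes, is low on the surface of adult mouse LT-HSCs and higher on progenitors. Its signals were 624 to 1904. The transcripts thus held the stem cell genes and CD150 of the label but not the absence of CD48 and CD34. The transcripts of myeloid progenitors moved with the array number in both genotypes. In bulk RNA, fewer cells of a type and less RNA per cell cannot be told apart.

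Ahr itself was near background in both genotypes. Its signal was 18.1, 26.5 and 38.1 (lowest, median and highest of 6) in AHRVav1 and 23.6, 46.7 and 97.2 in AHRFX, above background on 2 of 6 and 5 of 6 arrays. Of the AHRFX arrays 5 lay above every AHRVav1 array, and array 3 lay among them. On the log2(signal + 16) scale used for all differences here, which understates changes of dim genes, Ahr was lower by 0.57 (difference -0.57, SE 0.20), with an exact two-sided permutation p of 0.0238 over all arrangements of the 12 arrays. In arrays 3 to 6 the difference was -0.30, with an exact p of 0.2 over 70 arrangements, of which the smallest possible is 0.0286, and in arrays 1 and 2 it was -1.12. Across all probe sets the limma adjusted p of Ahr was 0.793. The position of the probes relative to the floxed exon was not looked up here, and the remaining signal does not measure how much of the gene was deleted.

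The partners of AHR showed little difference by genotype. Of 19 measured partners and PAS relatives, 11 were higher and 8 lower in AHRVav1, with a median difference of 0.03 with all arrays, 0.01 in arrays 3 to 6 and 0.03 in arrays 1 and 2. Arnt, the dimerization partner, differed by 0.01 (signals of 153 to 189 in AHRVav1 and 117 to 233 in AHRFX). Hsp90aa1 and Ptges3, which encode HSP90 and p23 of the resting complex, differed by 0.10 and -0.04. The single member besides Ahr with an unadjusted p under 0.05 was Sim1, a neuronal bHLH-PAS factor, at 0.26 (limma adjusted p = 0.807).

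Genes that AHR is known to induce were neither lower nor higher as a group. Of 14 measured targets 7 were higher and 7 lower, the median difference was -0.04 with all arrays, 0.01 in arrays 3 to 6 and -0.06 in arrays 1 and 2, and 5 were above background on no array. Cyp1a1, the classical monooxygenase target, was above background on 1 array of 12 and differed by 0.08. Cyp1b1, a related monooxygenase, had signals of 13.5, 21.9 and 32.4 in AHRVav1 against 22.6, 31.2 and 39.3 in AHRFX, a difference of -0.29 (-0.22 in arrays 3 to 6 and -0.42 in arrays 1 and 2). The ranges of Cyp1b1 overlapped, and its unadjusted p was above 0.05. Scin, which encodes the actin-severing protein scinderin, was at 8.1, 16.8 and 28.7 against 14.8, 19.7 and 132, a difference of -0.49. AHRFX array 4 alone held the 132. Tiparp, an ADP-ribosylase that inhibits AHR, differed by -0.10 on its brighter probe set, which the list uses, and by -0.39 on its other (limma unadjusted p = 0.0475), which was above background on 9 of 12 arrays. Ahrr, the AHR repressor, differed by 0.04 and the quinone reductase Nqo1 by 0.01. On the brightest probe set of each gene, the only target with an unadjusted p under 0.05 was Nfe2l2, the master regulator of the oxidative stress response, which was higher in AHRVav1: 588, 682 and 957 against 391, 552 and 645, a difference of 0.44 (SE 0.16, limma adjusted p = 0.793). The groups overlapped, and the Nfe2l2 difference was 0.17 in arrays 3 to 6 and 0.96 in arrays 1 and 2.

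The promoters of several of these genes hold the AHR core. The 250 bases before each RefSeq transcript start (GRCm38.p6) were searched on both strands for GCGTG, which reads CACGC on the opposite strand. A core was found for 60% of the AHR targets with a listed promoter (6 of 10), 37.3% of all genes measured (6313 of 16923), 40.9% of those higher in AHRVav1 at an unadjusted p under 0.05 (222 of 543) and 35.9% of those lower (185 of 515). Below are windows of 25 bases, in the direction of transcription, with the core in capitals. They are shown for 4 targets, for the repressor Ahrr, and for the genes Mtx1, Timm17a and Foxj2 that are described further on. Only genes with a core are shown. Of the 24 genes named further on for one direction in both sets, 17 had a listed promoter. A core was present in 6 of these 17 (35.3%), and Pogz, Mrpl37, H1f1 and Fcer1a were among those without one. A match of 5 letters is a description of the sequence and not a binding site.
Cyp1a1, chr9:57697549-57697573, plus strand: agataaggagGCGTGgccaacagac
Cyp1b1, chr17:79715123-79715147, minus strand: tcccgcccctCACGCcccaccccct
Tiparp, chr3:65528267-65528291, plus strand: ccgtccggagCACGCgcacgggagg
Scin, chr12:40134249-40134273, minus strand: ccgggttcggGCGTGgctgttggct
Ahrr, chr13:74292424-74292448, minus strand: ttgaaagggcGCGTGgcaggcaggg
Mtx1, chr3:89213996-89214020, minus strand: cgccaagagcCACGCctccccagac
Timm17a, chr1:135313886-135313910, minus strand: cccgaacctcCACGCcctggccggg
Foxj2, chr6:122820011-122820035, plus strand: cggggagcccCACGCtccgggaagc

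Over all 26688 probe sets, 0 passed an adjusted p of 0.05 in limma (0% of those tested), and the smallest adjusted p was 0.661. At an unadjusted p under 0.05 there were 824 higher in AHRVav1 (3.09%) and 824 lower (3.09%). With a change of at least 1.5-fold as well, the size and P the study's methods name, 34 were higher (0.127%) and 52 lower (0.195%). The fold was taken here on log2(signal + 16), an offset the paper does not name, so the cut is not the study's own. These 86 became 675 with an offset of 1 and 16 with an offset of 64. The values of the 6 AHRVav1 arrays did not overlap those of the 6 AHRFX arrays for 101 probe sets (0.378%). The methods' t-test, run on the log2(signal + 16) scale, gave 1662 probe sets at p under 0.05. Of these, 57 had the fold change as well, and 0 passed Benjamini-Hochberg adjustment. The genes below are thus named by a rule of size, p and direction, and none of them passed the test across all probe sets.

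The genotype difference measured in arrays 1 and 2 was not that of arrays 3 to 6. Across all probe sets the differences of the 2 sets, which share no array, had Pearson's r of -0.0509 and Spearman's rho of 0.00117, given as a description since probe sets are not independent, and 50.58% had the same sign. Of the 154 probe sets with an unadjusted p under 0.05 and 1.5-fold in arrays 3 to 6, 44.81% kept their sign in arrays 1 and 2. The median size of a difference was 0.11 in arrays 3 to 6 and 0.21 in arrays 1 and 2. The plot of the difference in arrays 1 and 2 against that in arrays 3 to 6 is a cloud with no slope, from which the erythroid genes leave upward.

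**Figure D1:**
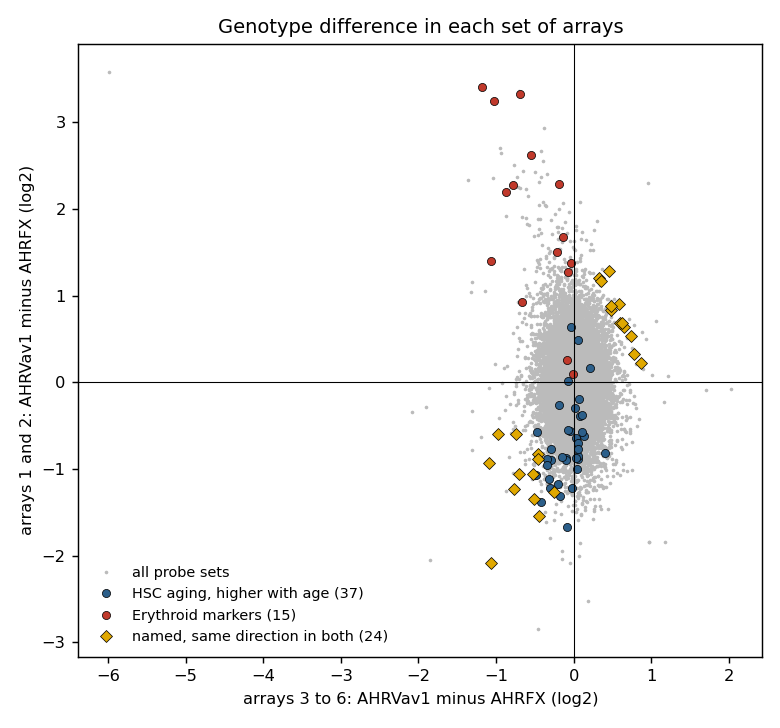
Log2 difference, AHRVav1 minus AHRFX, in arrays 1 and 2 (vertical axis) against arrays 3 to 6 (horizontal axis) for 26688 probe sets (grey points), with 37 HSC aging genes (blue), 15 erythroid genes (red) and the 24 genes named for one direction in both sets (yellow diamonds, chosen for it). 15 of 15 erythroid genes lie above the horizontal line and 0 of 15 to the right of the vertical line.

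Metaxin 1 had the smallest p among the genes higher in AHRVav1 in both sets of arrays. Of the 12 named, 3 encode mitochondrial import or ribosome proteins, a count with no share of all genes beside it and not read as a theme. The rule took, among single-gene probe sets of above-median signal, those with p under 0.05, 1.5-fold and one direction in both sets. There were 51 such probe sets, 21 higher and 30 lower, and the 12 of smallest p in each direction are described. The requirement of one direction removed none of the 51. Mtx1 encodes metaxin 1, an outer membrane protein of mitochondrial protein import. Its signal was 245, 252 and 334 (lowest, median and highest) in AHRVav1 and 115, 163 and 222 in AHRFX, a difference of 0.68 (SE 0.15, limma adjusted p = 0.661). All 6 AHRVav1 arrays lay above all 6 AHRFX arrays, and the difference was 0.74 in arrays 3 to 6 and 0.54 in arrays 1 and 2. Timm17a, a subunit of the inner membrane translocase, was at 602, 695 and 1121 against 361, 444 and 683, a difference of 0.74 (0.46 and 1.28 in the 2 sets). AHRVav1 arrays 1 and 2 were the highest of the 12 for Timm17a, and only AHRFX array 6 reached into the AHRVav1 range. Mrpl37, of the large mitochondrial ribosomal subunit, was at 203, 263 and 395 against 144, 188 and 199, a difference of 0.62 (0.32 and 1.21), and its groups did not overlap.

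The other named higher genes had varied roles, among them 3 chromatin proteins and a splicing factor. Pogz, a zinc finger protein that binds heterochromatin protein HP1, was at 321, 352 and 376 in AHRVav1 and 141, 225 and 305 in AHRFX, a difference of 0.65 (SE 0.16, limma adjusted p = 0.742) without overlap. The Pogz difference was 0.65 in arrays 3 to 6 and 0.64 in arrays 1 and 2. Smarcd1, a subunit of the SWI/SNF remodelling complex, differed by 0.62 (0.59 and 0.68) on this probe set and by 0.15 on its other. That other Smarcd1 probe set, above background on all 12 arrays, turned sign between the sets, at 0.35 in arrays 3 to 6 and -0.25 in arrays 1 and 2. H1f1, a linker histone, was at 976, 1111 and 1375 against 487, 740 and 1167, a difference of 0.63 (0.78 and 0.33). The H1f1 groups overlapped through AHRFX arrays 1 and 2, which held 1167 and 1007. Sf3b4, a splicing factor of the U2 particle, differed by 0.63, but by 0.35 in arrays 3 to 6 and 1.17 in arrays 1 and 2. The remaining genes of the 12 were Commd10 (0.65), the sphingomyelinase Smpd4 (0.60), the tubulin folding cofactor Tbcb (0.61), 2310061I04Rik (0.69) and 1700028J19Rik (0.64).

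The 12 named genes lower in AHRVav1 in both sets had varied roles, from adhesion and lipid binding to transcription and mitochondrial metabolism. Cdh2 encodes N-cadherin, a homophilic adhesion protein that has been studied at the contact of stem cells with their niche. Its signal was 9.7, 28.5 and 41.8 in AHRVav1 and 51.2, 69.8 and 250 in AHRFX, a difference of -1.41 (SE 0.32, limma adjusted p = 0.695). The groups did not overlap, the AHRFX values spread widely, and the Cdh2 difference was -1.07 in arrays 3 to 6 and -2.08 in arrays 1 and 2. Another Cdh2 probe set, above background on 1 array of 12, differed by -0.42. Fabp4 and Fabp7 encode fatty acid-binding proteins, of which Fabp4 is typical of adipocytes and capillary endothelium. Fabp4 was at 20.9, 42.8 and 89.7 against 68.6, 95.4 and 234, a difference of -1.04 (-1.09 and -0.93 in the 2 sets), with overlap. Fabp7 was at 25.7, 34.8 and 50.8 against 46.1, 73.7 and 80.6, a difference of -0.69 (-0.74 and -0.60).

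Of surface receptors, Fcer1a, the alpha chain of the high-affinity IgE receptor of mast cells and basophils, was at 41.9, 97.8 and 161 in AHRVav1 and 122, 183 and 260 in AHRFX. The Fcer1a difference was -0.92 (SE 0.27, limma adjusted p = 0.793), -0.76 in arrays 3 to 6 and -1.23 in arrays 1 and 2. Both genotypes were lowest on arrays 1 and 2, and within each set of arrays the genotypes did not cross except at AHRVav1 array 5, which exceeded AHRFX array 5. Epcam, an epithelial adhesion molecule, differed by -0.82, and Thbd, the thrombin receptor thrombomodulin, by -0.60. Thbd was at 59.6, 103 and 154 against 151, 163 and 206, so that the groups touched only at their edges.

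Foxj2, a forkhead transcription factor, was separated by genotype most clearly in arrays 3 to 6. Its signal was 66.2, 86.5 and 110.5 in AHRVav1 and 100, 196 and 214 in AHRFX, a difference of -0.85 (SE 0.19, limma adjusted p = 0.661). The difference was -0.97 in arrays 3 to 6 (limma unadjusted p = 9.42e-06) and -0.60 in arrays 1 and 2. In arrays 3 to 6 alone no probe set passed an adjusted p of 0.05 in limma (smallest 0.126). The other Foxj2 probe set differed by -0.31. AHRFX arrays 1 and 2 were the 2 lowest of their group, at 100 and 119. Tnip3, which inhibits NF-kB through A20, was at 81.3, 98.1 and 151 against 126, 179 and 209, a difference of -0.70 (-0.52 and -1.06). Dmgdh, a mitochondrial enzyme of choline breakdown, was at 58.5, 70 and 96.2 against 107, 113 and 139, a difference of -0.59 with no overlap. The remaining 3 of the 12 were 1700101I11Rik (-0.79), Btbd35f2 (-0.81) and the membrane protein Tmem176b (-0.59).

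**Figure D2:**
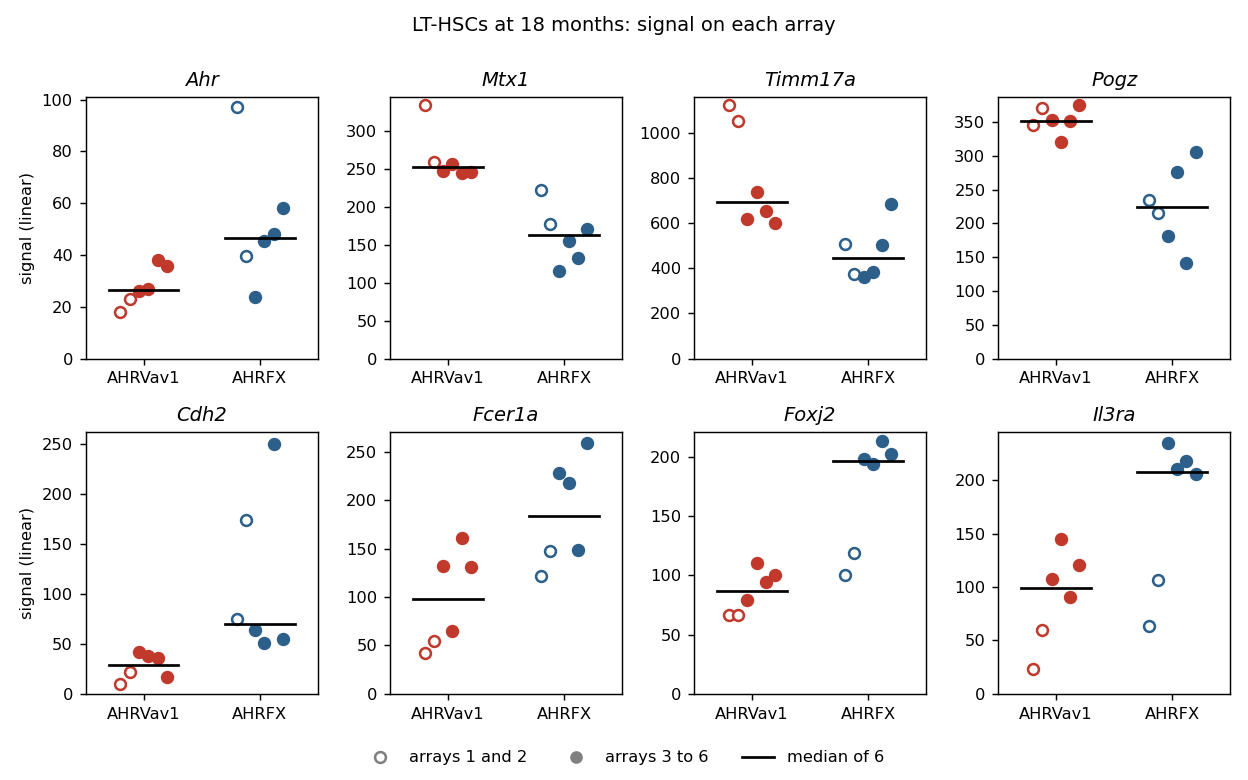
Linear signal of 8 genes on each array by genotype (open circles arrays 1 and 2, filled circles arrays 3 to 6, line the median of 6). The groups do not overlap for Mtx1, Pogz and Cdh2, Foxj2 of arrays 3 to 6 is at or below 110.5 in AHRVav1 and at or above 193.8 in AHRFX, and the AHRVav1 circles of Timm17a on arrays 1 and 2 stand above all others.

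Erythroid genes behaved oppositely in the 2 sets of arrays. These genes encode the transcription factors, iron uptake and membrane proteins of red cell precursors. All 15 measured were higher in AHRVav1 in arrays 1 and 2 (median 1.67) and 0 of 15 in arrays 3 to 6 (median -0.55), so that the median of 0.36 over the 12 arrays described neither set. Klf1, the erythroid master factor, was at 856 and 772 on AHRVav1 arrays 1 and 2, at 30.5 to 120 on AHRVav1 arrays 3 to 6 and at 59.3 to 185 in AHRFX. Rhag, a red cell ammonium channel, was at 850 and 702 on the same 2 arrays, at 43.4 to 112 on the other AHRVav1 arrays and at 52.1 to 185 in AHRFX. Tfrc, the transferrin receptor for iron uptake, was at 1114 and 809, at 157 to 281 and at 140 to 278. In each case AHRVav1 arrays 1 and 2 alone were high. The summed erythroid signal was 15190 and 14170 on these 2 arrays and at most 6533 on the other 10.

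The test of the difference between the sets, an interaction term in limma, called 165 probe sets at an adjusted p under 0.05. The signed difference, AHRVav1 minus AHRFX, was more positive in arrays 1 and 2 than in arrays 3 to 6 for 114 (0.427%). For 51 (0.191%) it was more negative in arrays 1 and 2, which is a direction and not a smaller size. In 156 of the 165 the 2 sets differed in sign. The split by array number was made with its earlier results known, so these calls are a description of it. The erythroid list held 8 of the calls. Among probe sets of above-median signal with a single gene symbol, the strongest by p were Asb17os, Add2 (beta-adducin of the red cell skeleton), Tspo2 (an erythroid translocator protein), Btnl10 and Slc38a5 (an amino acid transporter). Tspo2 was at 606 and 573 on AHRVav1 arrays 1 and 2 and at 14.4 to 107 on the other 10, and its difference was 3.37 in arrays 1 and 2 and -0.71 in arrays 3 to 6 (interaction adjusted p = 0.00198). Btnl10 differed by 2.33 and -1.36, with the smallest values in AHRVav1 arrays 4 to 6. On the other side, Ramp1, an accessory subunit of the CGRP receptor, was at 185 and 181 on AHRVav1 arrays 1 and 2, at 474 to 585 on AHRVav1 arrays 3 to 6 and at 330 to 450 in AHRFX (-0.82 and 0.48). Treml2, a myeloid receptor, differed by -0.90 and 0.16. Pgap4, Paqr7 and Tmem205 completed the 5 strongest of that direction, and a probe set without a symbol, which the rule leaves out, had a smaller p than these 5 (-1.46 and 0.35).

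Myeloid genes followed the array number in both genotypes. Prtn3, a neutrophil serine protease, was at 621 to 1439 on arrays 1 and 2 and 1441 to 2809 on arrays 3 to 6, the same order as Elane, Mpo and Cd48 above. Its genotype difference was -1.08 in arrays 1 and 2 and 0.32 in arrays 3 to 6 (limma interaction adjusted p = 0.0146). The summed monocyte and macrophage signal was 4122 and 4906 on AHRVav1 arrays 1 and 2, and 7097 and 7460 on AHRFX arrays 1 and 2. In arrays 1 and 2, 9 of 20 granulocyte genes were nevertheless higher in AHRVav1. Of 20 granulocyte genes 4 were higher and 16 lower in AHRVav1, with a median of -0.23 over 12 arrays, -0.23 in arrays 3 to 6 and -0.14 in arrays 1 and 2. Camp and Ngp, proteins of late granules, were lower in AHRVav1 in arrays 3 to 6 (-1.33 and -1.31) and higher in arrays 1 and 2 (1.05 and 1.16). The part of these cell type differences in the other genes of this comparison was not tested.

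**Figure D3:**
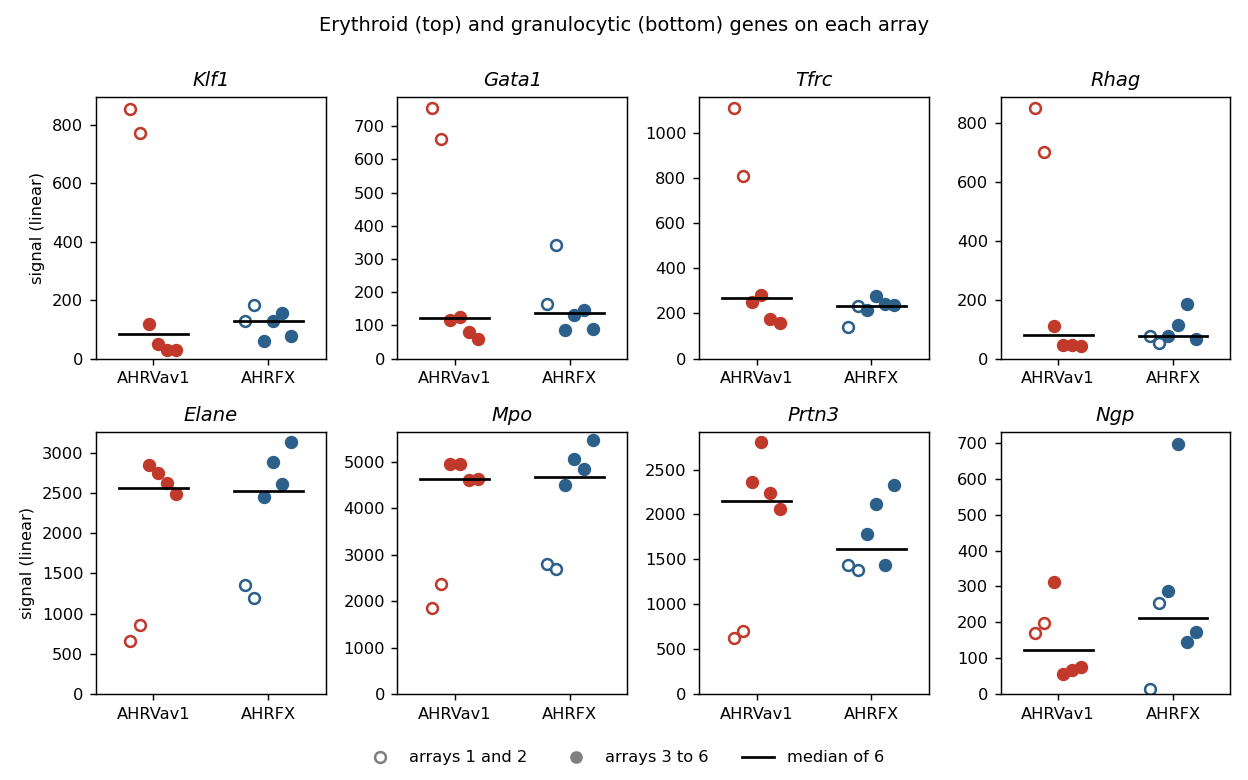
Linear signal of 4 erythroid genes (top) and 4 granulocytic genes (bottom) on each array (open circles arrays 1 and 2, filled circles arrays 3 to 6, line the median of 6). AHRVav1 arrays 1 and 2 stand alone for Klf1, Gata1, Tfrc and Rhag, whereas Elane and Mpo are low on arrays 1 and 2 of both genotypes.

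Stem cell genes were lower in AHRVav1, mostly through arrays 1 and 2. Of 22025 genes, 3.12% were higher and 3.06% lower at an unadjusted p under 0.05, with a median difference of 0.00, and none of the list members passed the adjusted threshold. Of 37 genes known to be higher in aged HSCs, 34 were lower in AHRVav1 and 12 of them (32.4%) had p under 0.05. The median of this list was -0.26 over the 12 arrays, -0.04 in arrays 3 to 6 and -0.81 in arrays 1 and 2. Ehd3, an endocytic recycling protein, was at 93.1, 109 and 138 against 146, 156 and 217, a difference of -0.55 (-0.34 and -0.95), and it was the only list member whose groups did not overlap. Vwf, the von Willebrand factor that marks platelet-biased stem cells, was at 312, 398 and 564 against 300, 599 and 957 (-0.52). Its 2 highest values were AHRFX arrays 1 and 2, and in arrays 3 to 6 the Vwf difference was -0.20. Runx1t1 (-0.59), Plscr2 (-0.52) and the sulfotransferase Sult1a1 (-0.50) were likewise smaller in arrays 3 to 6 (-0.32, -0.34 and -0.30). For the adhesion molecule Alcam (-0.50) the sets were alike, with -0.47 and -0.57.

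Genes of LT-HSC identity had the same form. Of 23 measured, 22 were lower and 7 (30.4%) had p under 0.05, and the medians were -0.21, -0.10 and -0.51 for the 12 arrays, arrays 3 to 6 and arrays 1 and 2. Pdzk1ip1, an LT-HSC surface adaptor, differed by -0.39 (-0.21 and -0.75) and Angpt1, the ligand of the Tie2 receptor that the stem cells themselves make, by -0.47 (-0.29 and -0.83). Mecom, which is needed for stem cell self-renewal, was at 216, 263 and 308 against 229, 396 and 419, a difference of -0.43 (-0.22 and -0.84). The dimmer Mecom probe set differed by -0.21 (-0.06 and -0.50). Slamf1 (-0.07) and Hlf (-0.10) showed little difference. Among 29 HSC transcription factors the median turned from -0.08 over 12 arrays to 0.08 in arrays 3 to 6, and Myb, a factor of proliferating progenitors, was the only one higher with p under 0.05 (0.34, and 0.19 in arrays 3 to 6). The dimmer Myb probe set, above background on all 12 arrays, differed by 0.10, and by -0.03 in arrays 3 to 6. In AHRFX, the aging list and the identity list were highest on arrays 1 and 2, at 0.56 and 0.41 and at 0.40 and 0.30 above the mean of the 12 arrays, the same animals' arrays whose myeloid signals were low.

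**Figure D4:**
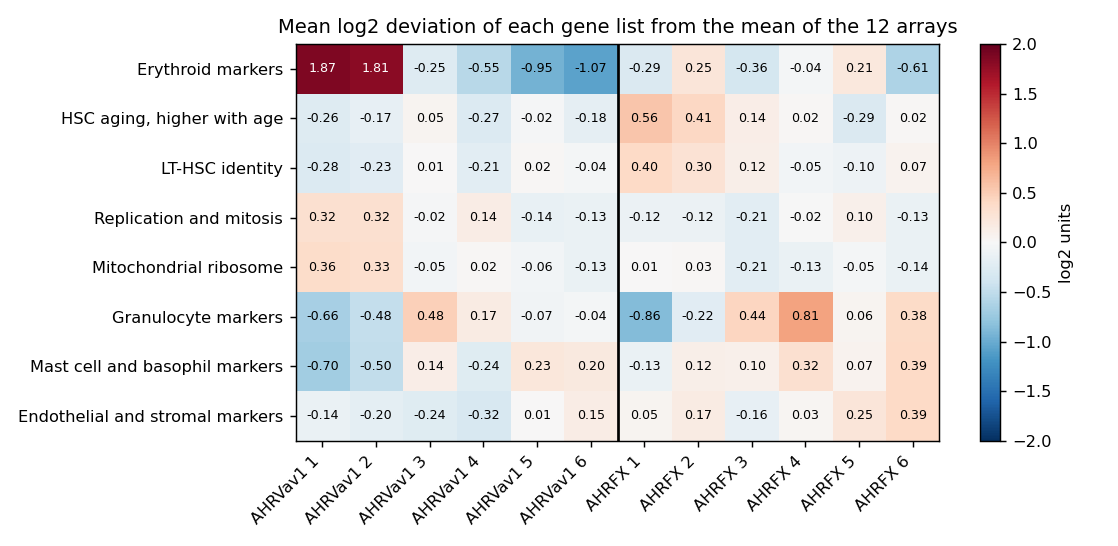
Mean log2 deviation of 8 gene lists from the mean of the 12 arrays (colour and number, log2 units) on each array, AHRVav1 left and AHRFX right. Erythroid genes are high on AHRVav1 1 and 2 (1.87 and 1.81), HSC aging genes on AHRFX 1 and 2 (0.56 and 0.41), and granulocyte genes are below 0 on arrays 1 and 2 of both genotypes.

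Mitochondrial and replication genes were higher in AHRVav1 as lists, again most in arrays 1 and 2. Of 50 mitochondrial ribosome genes 41 were higher and 8 (16%) had p under 0.05 in that direction against 1 in the other, with medians of 0.22, 0.09 and 0.36. The members of smallest p after Mrpl37 were Mrps25 (0.33), Mrps12 (0.34) and Mrpl42 (0.31), all ribosomal subunits. Mrps12 was at 405, 429 and 501 against 288, 333 and 456, and its difference was 0.51 in arrays 3 to 6 and 0.01 in arrays 1 and 2. Of 29 import genes 27 were higher and 6 (20.7%) had p under 0.05, with medians of 0.13, 0.03 and 0.40. Timm8b, a small carrier of the intermembrane space, was at 790, 869 and 1169 against 564, 595 and 761, a difference of 0.49 (0.31 and 0.85) with no overlap. Timm13, its relative, differed by 0.34 (0.23 and 0.56) and Timm21 by 0.43 (0.47 and 0.34). Of 43 replication and mitosis genes 36 were higher and 6 (14%) had p under 0.05, with medians of 0.14, 0.02 and 0.46. Cdc20, the activator of the anaphase-promoting complex, was at 275, 387 and 470 against 253, 270 and 327, a difference of 0.45 (0.40 and 0.55). Ect2 (0.54), Mcm10 (0.52) and Gins1 (0.48), of cytokinesis and the replication fork, were smaller in arrays 3 to 6, at 0.28, 0.36 and 0.28. The proliferation marker Mki67 differed by -0.01, with -0.28 in arrays 3 to 6 and 0.53 in arrays 1 and 2. AHRVav1 arrays 1 and 2, which were high in erythroid genes, were also the 2 highest arrays of these 3 lists, and whether the erythroid transcripts bore on them was not tested.

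Signalling genes gave single members rather than lists. Il3ra, the alpha chain of the interleukin-3 receptor, was at 23.1, 99 and 145 in AHRVav1 and 63.7, 208 and 234 in AHRFX, a difference of -0.84 (SE 0.34, limma adjusted p = 0.795). Its difference was -0.84 in arrays 3 to 6 (limma unadjusted p = 9.63e-05), where the groups did not overlap. In arrays 1 and 2 it was -0.86 (interaction adjusted p = 0.99 in limma). The level of Il3ra was lower on arrays 1 and 2 of both genotypes. No probe set passed an adjusted p of 0.05 in arrays 3 to 6 alone. Of 30 cytokine receptor and JAK-STAT genes 23 were lower, with medians of -0.17, -0.06 and -0.31, and on the brightest probe set of each gene Il3ra was the only one with p under 0.05. A dimmer probe set of Socs3, a feedback inhibitor of STAT signalling, was higher by 0.31 (limma unadjusted p = 0.0252) and above background on 7 of 12 arrays, whereas the brighter Socs3 probe set differed by -0.08. In the Toll-like receptor and NF-kB list 4 of 29 (13.8%) were lower with p under 0.05: Tnip3, the lipopolysaccharide receptor Tlr4 (-0.44), the NF-kB inhibitor Nfkbia (-0.41) and the subunit Nfkb2 (-0.47). For Nfkb2 the difference was -0.08 in arrays 3 to 6 and -1.26 in arrays 1 and 2. Immediate early genes had a median of -0.18 over the 12 arrays, 0.02 in arrays 3 to 6 and -0.57 in arrays 1 and 2. Of 27 niche adhesion genes 20 were lower, with medians of -0.21, -0.09 and -0.51, and the smallest p after Cdh2 and Alcam belonged to Adgrg1 (GPR56, -0.25), an adhesion receptor of stem cells. Xenobiotic enzymes showed 3 of 23 (13%) lower with p under 0.05: the aldehyde dehydrogenase Aldh2 (-0.43), the glutathione transferase Gstm2 (-0.68) and Sult1a1. Their list median was -0.08, 0.01 in arrays 3 to 6 and -0.36 in arrays 1 and 2. Of 21 imprinted genes 11 were higher and 10 lower, with a median of 0.00, and 4 lower ones (19%) and 1 higher one (4.76%) had p under 0.05. The lower ones included Ndn (necdin, -0.66) and Cdkn1c (the cell cycle inhibitor p57, -0.34), with -0.25 and -0.29 in arrays 3 to 6, and the higher one was the zinc finger gene Zim1 (0.26), above background on 0 arrays.

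**Figure D5:**
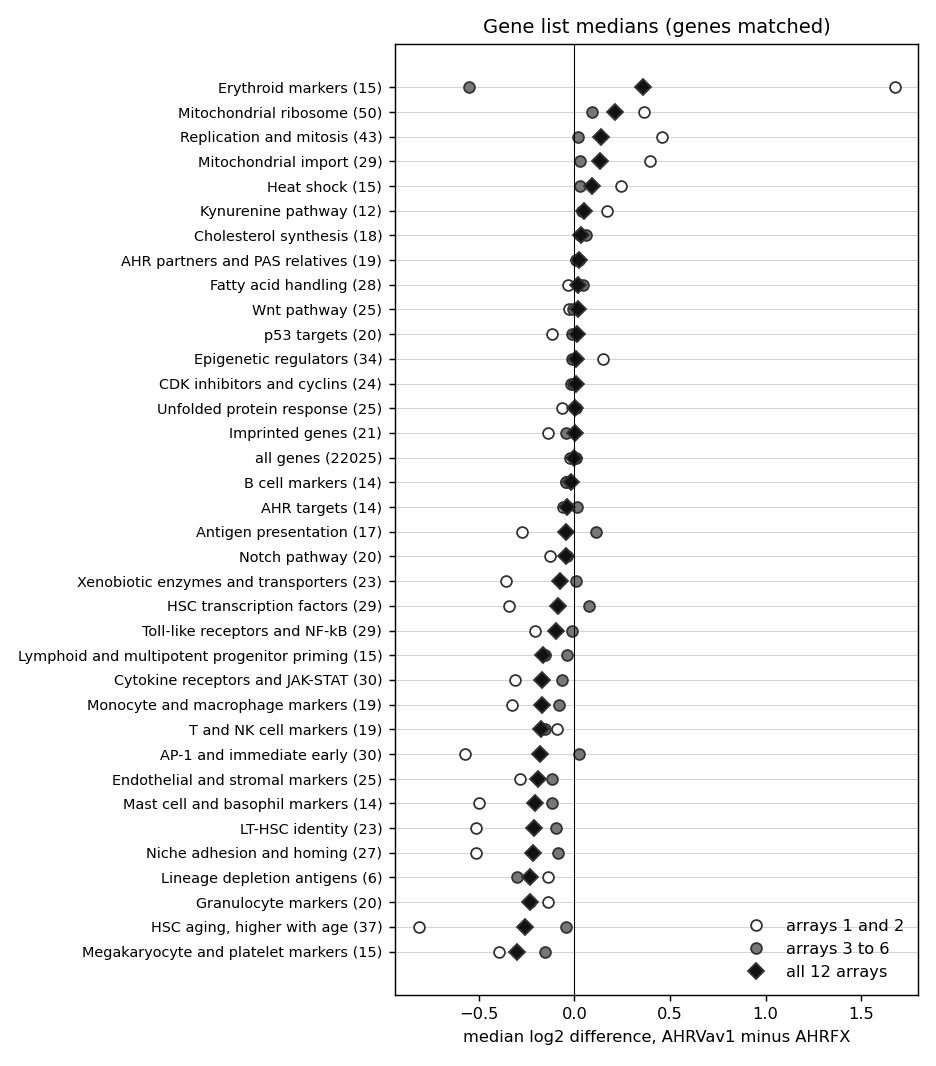
Median log2 difference, AHRVav1 minus AHRFX, of each gene list (number of genes matched in parentheses) in arrays 1 and 2 (open circles), arrays 3 to 6 (grey circles) and all 12 (diamonds). The grey circles lie nearer to 0 than the open ones for the aging, identity, replication and mitochondrial lists, and the erythroid list lies on opposite sides of 0 in the 2 sets.

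Markers of other cell types were mostly lower in AHRVav1. Of 25 endothelial and stromal markers 20 were lower, 22 had the same sign in both sets, and the medians were -0.19, -0.12 and -0.28. Cldn5, the tight junction protein of endothelium, was at 5.4, 16.6 and 24.9 against 25.8, 33.6 and 59.1, a difference of -0.73 (-0.69 and -0.81). The Cldn5 groups did not overlap, and all AHRVav1 values lay below background. Stab2, a scavenger receptor of sinusoids, differed by -0.48 and Sparc, a matrix protein, by -0.59, while Cdh5 (VE-cadherin) was at 0.6, 32.8 and 64.9 against 24.2, 44.8 and 166, with overlap. The summed endothelial and stromal signal was 1293, 1377 and 2002 in AHRVav1 and 1478, 1865 and 2309 in AHRFX, and the part of such cells in the Fabp4 and Cdh2 differences was not tested. Of 14 mast cell and basophil markers 0 were higher and 14 lower, with medians of -0.21, -0.11 and -0.50. Their summed signal was 1726, 4588 and 5606 against 3363, 4395 and 6526, and besides Fcer1a none had p under 0.05 (Prss34, a basophil protease, differed by -0.56). Of 15 megakaryocyte and platelet markers 14 were lower, with medians of -0.30, -0.15 and -0.39, led by the tubulin Tubb1 (-0.44), Vwf and Rab27b (-0.36). The platelet chemokine Ppbp was at 473 on AHRFX array 1 and at most 134 on every other array. Of 19 T and NK cell markers 14 were lower, with medians of -0.17, -0.15 and -0.09, and Zap70, a T cell receptor kinase, was above background on 1 of 12 arrays (-0.49). B cell markers had a median of -0.02.

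The genotype difference of these genes at 2 months is given beside that at 18 months, and the test of the difference between the ages called none of them. Mtx1 differed by -0.01 at 2 months (5 AHRVav1 and 5 AHRFX mice), Timm17a by -0.09, Pogz by -0.68 and H1f1 by -0.94, against 0.68, 0.74, 0.65 and 0.63 at 18 months. Of the lower genes, Cdh2 differed by 0.24 at 2 months, Fabp4 by 1.25, Foxj2 by 1.16 and Fcer1a by -0.35. Background was higher at 2 months, at signals of 58.5 to 95.7 against 25.2 to 31.3 at 18 months. The median size of a difference over all probe sets was 0.24 at 2 months and 0.10 at 18 months. These 2-month values are given without their SE and do not by themselves show a change with age. The test of the difference between the ages called 3 of 26688 probe sets (0.0112%). The 3 were Rassf5, a Rap1 effector of leukocyte adhesion, the phosphatase Ppm1h and a probe set without a symbol. For Rassf5 the difference was 2.15 at 2 months and -0.19 at 18 months, and for Ppm1h 3.03 and -0.28. At 18 months alone none of the 3 had p under 0.05. The list medians at 2 months were -0.38 for replication, -0.31 for mitochondrial import and -0.15 for the aging list.

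The study tabulated genes changed at this age in both AHRVav1 mice and global AHR-KO mice, the latter from a separate data set. They were checked here in the same AHRVav1 and AHRFX arrays that the study used, so that their count is no independent evidence. Of 15 measured genes of its higher list 10 were higher with p under 0.05, and of 17 of its lower list 11 were lower. The medians were 0.28, 0.27 and 0.34 for the first list over the 12 arrays, arrays 3 to 6 and arrays 1 and 2, and -0.24, -0.21 and -0.35 for the second. Sf3b4, Gins1 and Runx1t1 above belong to them. So does Birc6, for which the paper reported altered expression by qPCR at both ages. On a dimmer Birc6 probe set, which the list does not use, the difference was 0.29 (limma unadjusted p = 0.0288). The brighter Birc6 probe set, which the list uses, is not described here. The 0.29 therefore does not stand for the gene and is no check of the qPCR. Psmg3, a proteasome assembly chaperone, differed by 0.41 (0.21 and 0.81), and Anapc1, a scaffold of the anaphase-promoting complex, by 0.33 (0.28 and 0.42). Perp, a junction protein induced by p53, was at 19.4, 25.2 and 51.8 against 26.3, 49.7 and 62.9, a difference of -0.49 in both sets. Il1rap, the accessory chain of the interleukin-1 receptor, was at 34.3, 38.6 and 41.5 against 41.9, 45.3 and 65.5, which did not overlap, although the difference was -0.24. Of the lower list 9 of 17 were above background on no array.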

How the data were processed

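The authors computed the deposited table of linear intensities, 1 per probe set, from whole-transcript mouse gene arrays with the IterPLIER algorithm of Affymetrix Expression Console, with background subtraction and quantile normalization (no version was named). Groups came from array titles. No column lacked a sample (0). Gene symbols came from the platform annotation: 23321 probe sets had 1 symbol, 1802 several and 1565 none, and older names were updated from a RefSeq table (GRCm38.p6). Intensities were transformed as log2(signal + 16) and fitted by limma 3.58.1 under R 4.3.3 (lmFit, eBayes with trend), with Benjamini-Hochberg adjustment over 26688 probe sets and a threshold of 0.05. The 12 arrays were fitted alone. Lists used 1 probe set per gene, that of highest mean signal. Gene lists, array sets and members were chosen with earlier results of these data known. Named genes were Ahr with its partners and targets, the 12 higher and 12 lower genes of smallest p with 1.5-fold and one direction in both sets, the 5 strongest interactions each way, up to 4 members per list with defining markers, and the study's own genes. Alternatives were offsets of 1 and 64, the 13343 probe sets of highest signal, renormalization, no trend, array weights, 4 groups in one fit, an array-set term, a replicate block, the methods' t-test and leaving out each array. Replicate numbers did not meet the rule for pairs. The depth of an array has no count, so the number of animals limits the precision. The fit was tested on simulated data.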

Additional observations from a re-analysis of the deposited data

Results flagged for a closer look

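Among 110 named genes, each genotype's 6 arrays were searched for an array whose gap to the nearest other, as a share of the group's range, exceeded Dixon's 95% critical value. Of 220 groups 27 had one, 9 in AHRVav1 and 18 in AHRFX. Chance alone flags about 1 group in 20 where values are normally distributed. The search was made on linear signals, for which that rate need not hold, so the 27 are not read as an excess. AHRFX array 2 held 6 of them, more than any other array.

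The AHRVav1 arrays that stood apart were array 1 for Mtx1 (334.1) and Timm8b (1169), array 2 for Mrpl42 (568.6), array 3 for Ly6g (12.1) and Zim1 (16.6), both below background, array 5 for Plscr2 (229.1) and Stab2 (38.2), and array 6 for Tnip3 (151.4) and Tubb1 (27.2). For Mtx1, Timm8b and Mrpl42 the array lay on the side of the genotype difference, and for Tnip3, Plscr2, Stab2 and Tubb1 on the opposite side.

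The AHRFX arrays that stood apart were array 1 for Il1rap (65.5), Cdc20 (327.4) and Ppbp (473.3), array 2 for Smarcd1 (189.1), Fabp7 (46.1), Gata1 (341.4), Nfkb2 (99.8), Timm21 (252.4) and Zim1 (23.2, below background), and array 3 for Tiparp (25.6) and 2310061I04Rik (64.2). They were also array 4 for Scin (131.7) and Timm13 (424.9), array 5 for Asb17os (34.6), Tspo2 (106.9) and Tlr4 (131.2), and array 6 for Sparc (160.5) and Cdh5 (166.3).

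The genotype difference at 18 months differed from that at 2 months for 3 probe sets, by -2.34 for Rassf5, -3.31 for Ppm1h and 3.73 for the probe set 17340817, which has no symbol here (limma interaction, adjusted p = 0.0211 each). The probe set without a symbol differed by -3.52 at 2 months and 0.21 at 18 months.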

How the results depend on the processing

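The count at an adjusted p under 0.05 was 0 in every limma setting run except arrays 1 and 2 alone (130, 81 higher and 49 lower) and leaving out single arrays (0 to 1). The 1 was Syne1 without AHRFX array 1 (-0.87, adjusted p = 0.00468), a probe set near background (0 to 4.1 in AHRVav1, 0.7 on that array and 12.4 to 22 on the other AHRFX arrays). Of the 130, 20 of 81 higher and 24 of 49 lower kept their sign in arrays 3 to 6. The 1648 at an unadjusted p under 0.05 became 4272 in arrays 1 and 2 alone, 885 among the probe sets of highest signal (fewer tested), 278 with 4 groups in one fit and 1187 to 1831 without single arrays. The 86 with 1.5-fold as well became 154 in arrays 3 to 6, 2668 in arrays 1 and 2 alone, 675 with an offset of 1, 16 with 64, 36 with 4 groups, 57 in the methods' t-test and 65 to 152 without single arrays, with 148 without AHRVav1 array 5, 141 without AHRVav1 array 6 and 152 without AHRFX array 5. The difference of Ahr was -0.30 in arrays 3 to 6 (exact p = 0.2), -1.12 in arrays 1 and 2 alone (exact p = 0.333, the smallest possible) and -0.71 to -0.41 without single arrays. The 165 interaction calls became 271 among the probe sets of highest signal. The 3 age calls became 0 with an offset of 64 and with arrays 3 to 6 as the 18-month arrays, 5 among the probe sets of highest signal, 5 without the trend and 6 with array weights. The cause of these shifts was not tested beside what the settings themselves change.

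The share of one sign in both sets was 48.1% to 53.9% without single arrays. Of 35 lists 20 had a median below 0 with 12 arrays, 21 in arrays 3 to 6, 26 in arrays 1 and 2 and 21 to 25 without single arrays, and 11 medians changed sign between 12 arrays and arrays 3 to 6. The 24 genes named for one direction were chosen for it and none passed the adjusted threshold over the 12 arrays, so a kept direction shows no stability. In 5 of their 576 settings the adjusted p fell under 0.05, all in arrays 1 and 2 alone. Of 2053 settings of other named genes 67 moved by more than the spread between arrays, 52 of them in arrays 1 and 2 alone.

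With the replicate number as a block, 0 probe sets passed the adjusted threshold, 1928 had an unadjusted p under 0.05 and 112 of them 1.5-fold. Same-numbered arrays shared deviations from their group means with correlations of -0.124 to 0.252, and 3 of 6 AHRVav1 arrays correlated best with their own number, so the numbers were not taken as pairs. No scaling moved the median of all probe sets by more than 0.01.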

Other observations

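Antibody genes were outside the lists above and were looked at after their values had been seen. The 22 immunoglobulin and J chain probe sets include 9 of the 20 probe sets with the widest range over the 12 arrays. Ighg3, a heavy chain constant gene made by plasma cells, had on its brighter probe set signals of 3840, 12.7, 17.2, 38560, 437.5 and 4.1 on AHRVav1 arrays 1 to 6 and 25, 2.8, 16680, 38560, 38560 and 7490 on AHRFX arrays 1 to 6. The value 38560 was the highest of the 12 arrays and recurred exactly, and 3 AHRVav1 and 2 AHRFX values lay below background, so no fold change is given. The brighter probe set was above background on 3 AHRVav1 and 4 AHRFX arrays. The other Ighg3 probe set was above background on 0 AHRVav1 and 2 AHRFX arrays, numbers 4 (181.3) and 6 (1302). Of the 22 probe sets 17 were lower in AHRVav1 and 0 had an unadjusted p under 0.05 in limma.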
